A study of Mus musculus with 4 samples.

Results

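Genes whose symbol starts with Zfp and a number were followed through a table of regions carrying N6-methyladenosine (m6A), a modification of adenosine inside messenger RNA. A row was a member if its gene symbol fitted that pattern, and each region was counted once per gene. This gave 122 regions under 77 genes, out of 6697 distinct regions under 3882 genes. Both libraries came from feeder-free E14K mouse embryonic stem cells, a line that can give rise to all tissues of the embryo. The cells had been kept for 14 days without LIF, the cytokine that holds such cells in self-renewal. One library was made from wild-type cells and the other from Gsk-3 DKO cells, which lack both forms of the kinase Gsk-3. Both were immunoprecipitates of polyadenylated RNA with an m6A antibody. The sources used here do not say whether the knockout line was a single clone. With 1 library per genotype there is no test, and what is compared are these 2 libraries rather than the genotypes.

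Zfp is the mouse naming root for zinc finger proteins, most of which bind DNA through rows of C2H2 fingers, short loops held by a zinc ion between cysteines and histidines. Many carry a KRAB domain, through which the corepressor Trim28 and the methyltransferase Setdb1 are brought to transposons and imprinted loci. A few members of this naming series are of another kind, such as Zfp36, whose fingers are of the CCCH type and bind AU-rich stretches of mRNA. m6A is written by a complex around Mettl3 and Mettl14, often in long exons and near stop codons, and marked mRNAs tend to be less stable in stem cells.

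Short stretches of RefSeq sequence (GRCm38.p6) reached into 3 members' regions and are shown because they are read directly from regions with counts. They are written along the strand of the member gene, with capitals marking GGAC, the core of the best-known m6A sequence. The Zfp212 stretch, chr6:47926695-47926786 on the plus strand, lay in a region over an intron and a coding exon with 30 wild-type reads against 0. The Zfp335 stretch, chr2:164911183-164911248 on the minus strand, lay in an intronic region with 28 against 0. The Zfp263 stretch, chr16:3744136-3744148 on the plus strand, was the start of a 5'UTR region with 41 against 1.
Zfp212: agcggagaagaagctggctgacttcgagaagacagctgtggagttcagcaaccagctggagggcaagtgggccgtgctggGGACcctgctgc
Zfp335: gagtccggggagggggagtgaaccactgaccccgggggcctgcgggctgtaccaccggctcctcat
Zfp263: tcgcgtgctgagg
GGAC occurred once in the Zfp212 stretch and in neither of the other 2. Its reverse complement, GTCC, occurred once in the Zfp335 stretch and in neither of the others. Of 32851 promoter windows cut to the same lengths, 27.8%, 20.8% and 3.55% held GGAC at 92, 66 and 13 bases, and 28.3%, 21.2% and 3.67% held GTCC. A match describes these letters only, and the rest of each region was not read.

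Wild-type counts of the members ran from 15 to 374 with a median of 45, and double-knockout counts from 0 to 25 with a median of 1. Over all members 7272 wild-type reads stood against 370, a 16.2-fold difference after the authors' constant of 0.825, by which the deposited ratio of wild type over double knockout is multiplied. Over all listed regions the same ratio was 17.5. In 0 of the listed regions did the knockout reach the wild-type count, so the list runs in 1 direction, and the direction of the members says nothing about Zfp transcripts outside it. No library totals came with the counts. The count columns name the genotype and not the kind of library, and they were matched to the m6A libraries because those titles carry the assay's name, so a count from the input libraries cannot be told apart from one of the immunoprecipitates. Without a separate count of input reads, less m6A and less of the transcript cannot be told apart. A gene without a listed region may still be expressed.

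Marker genes of the cell types that such a culture could hold were also in the table, where 15.7% of protein-coding genes without a Zfp name were listed. Of 10 stem cell markers 4 were listed, among them Pou5f1 (55 against 6), while Zfp42, Nanog and Sox2 were not. Their regions had a median log2 value of -4.01, with 1 of 5 empty. The early neural markers Nes and Tubb3, 2 of 4, had 2221 reads against 13 over 10 regions, with a median of -6.59 and 7 empty. Tubb3 had 1 of these regions, with 37 against 2 and a log2 value of -3.63, against a median of -4.93 over all listed regions. All the others, with every empty one, were in Nes. All 3 mesoderm markers were listed (220 against 3, median -5.23, 2 of 4 regions empty), as were 3 of 4 endoderm markers (243 against 17, median -3.83, 1 of 4 empty). Of 3 fibroblast markers Col1a1 was listed, with 248 against 0 over 4 regions. Whether the 2 libraries differ in the kinds of cells they hold, and what part that has in the members' counts, was not tested.

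**Figure D1:**
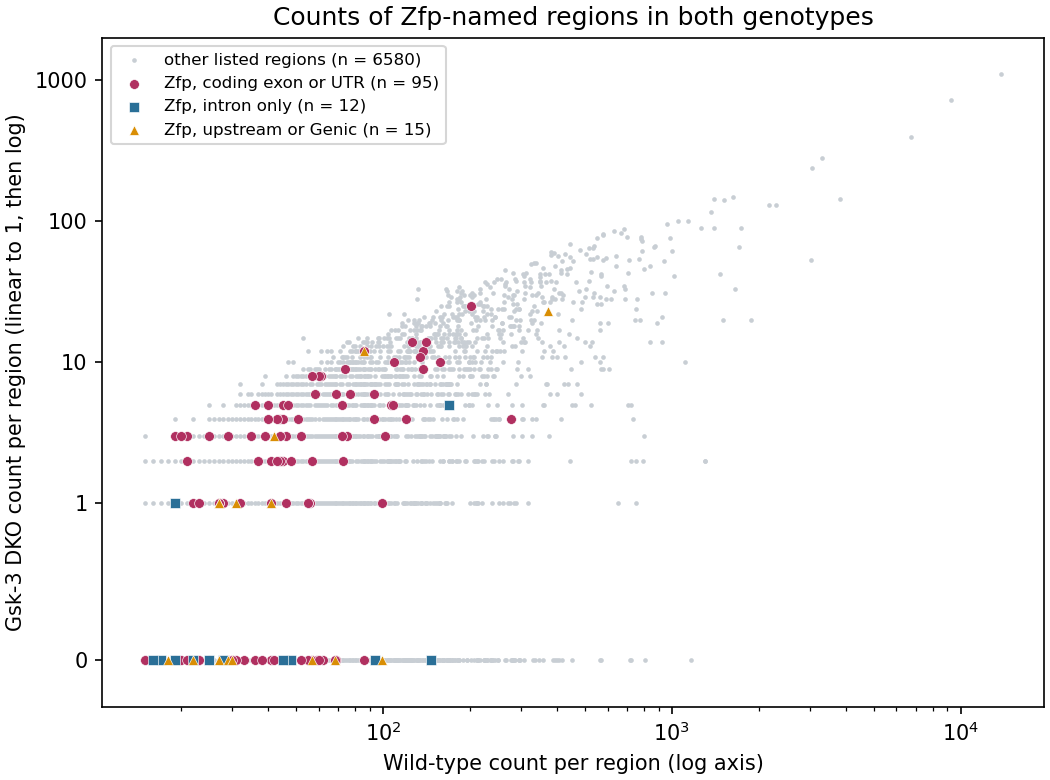
Wild-type count of each region (x axis, log) against its Gsk-3 DKO count (y axis, linear to 1 and log above), for 122 Zfp-named regions by annotation and 6580 other listed regions in grey. The Zfp-named points lie inside the grey cloud, from 15 to 374 wild-type reads, with 46 on the line at 0.

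The double-knockout count was 0 in 46 of the 122 members (37.7%, 95% exact Clopper-Pearson interval 29.1 to 46.9), against 50.5% of all listed regions. The latter include regions without a gene. Where the double-knockout count was 0, a fold written as "at least" is taken at a floor of 3 counts. The exact 2-sided 95% limit, used wherever intervals are compared, lies lower for such a region. At least 10-fold lower in the knockout were 67 members (54.9%, 45.7 to 63.9), against 52.5% of all listed regions, so this share lay near the background. These folds rest on the constant of 0.825. Scaled by a median-ratio factor in its place, 0 members were at least 10-fold lower, the fold of the sums was 1.19, and 14 of 31 named genes lay above 0 on the log2 scale. That factor centres the regions with reads in both libraries by construction. On the log2 scale, as double knockout over wild type with 0.5 added to both counts, the median was -4.13 in the members and -4.93 over all listed regions. With zeros at their bound the median folds were 11.4 and 10.4. A smaller share of the members was empty, while the median fold was similar. The 76 members that kept reads in the knockout had folds between 5.22 and 81.7, and their median of 12.7 compares with 13.6 in all such regions. All 122 members were at least 4-fold lower, as were 99.9% of all listed regions. Regions of 1 gene share their RNA and counts by PCR can repeat a molecule, so these intervals cover counting error only and are too narrow.

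The authors' annotation placed 78 members (63.9%, 54.7 to 72.4) over a coding exon, against 54.3% of 5222 other regions with a gene. A UTR without coding exon was covered by 17 (13.9%), against 15.3%. Only 12 members (9.84%, 5.19 to 16.6) lay in introns alone, where the other regions had 21.4%, and that interval does not reach the others' share. Upstream regions were 11 (9.02%, 4.59 to 15.6), and 4 lay in transcripts annotated as Genic. The others' upstream share of 4.06% is not a like measure. Members were classed under their own gene, and the others by their first class over all genes. Upstream members such as those of Zfp385a and Zfp607 lay in a neighbour's 3'UTR, where the others' rule would class them. Among the intronic members 10 of 12 had no double-knockout reads, as had 21 of 78 in coding exons (26.9%). The corresponding shares of the other regions were 70.0% and 35.1%.

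**Figure D2:**
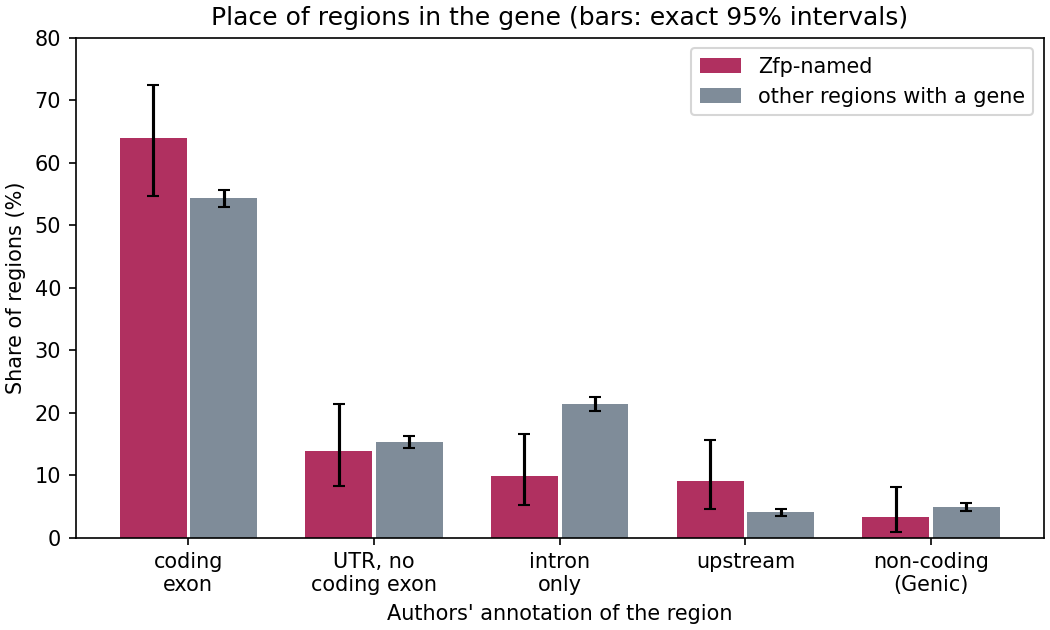
Share of regions (y axis, percent) in each class of the authors' annotation (x axis) for 122 Zfp-named regions and 5222 other regions with a gene, with exact 95% intervals. Zfp-named regions are classed under their own gene and the others by their first class over all genes. Coding exons hold 63.9% of the Zfp-named regions and introns 9.84%, against 54.3% and 21.4% of the others.

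In Zfp genes the finger array is commonly encoded by a single long last exon, and the members' coding regions were described by their place along the gene. Of the 78 coding-exon members, 9 (11.5%) also touched an intron, against 39.1% of 2829 other coding-exon regions. Their median genomic distance from the 3' end of the RefSeq gene was 3146 bases (quartiles 1908 and 5973), against 5892 (2460 and 17525). Within 5000 bases of that end lay 52 of 78 (66.7%), against 45.5%. The genes themselves were shorter, with a median span of 15066 bases over these regions against 28737. Along the gene the median position was 77.7% and 71.3% of the span, a smaller gap than the one in bases. Zfp637 (295.5 bases from the end, 27 reads against 1), Zfp821 (264.5 bases, 52 against 0) and Zfp57 (539 bases, 61 against 8) were among those nearest to the end. Zfp423, with the 3' end over 100000 bases away in all its coding regions, was at the other extreme.

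**Figure D3:**
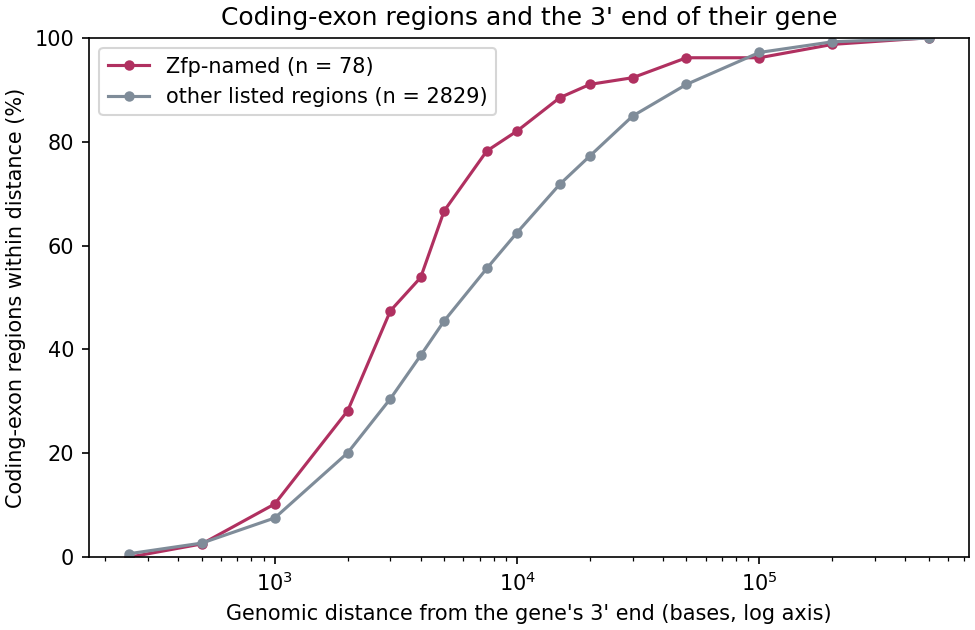
Cumulative share of coding-exon regions (y axis, percent) within a genomic distance of the gene's 3' end (x axis, bases, log), for 78 Zfp-named and 2829 other listed regions. At 5000 bases the Zfp-named curve stands at 66.7% and the other at 45.5%.

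The share of empty regions depended on the wild-type count. Of members with 20 to 29 wild-type reads 13 of 25 (52.0%, 31.3 to 72.2) had no double-knockout reads, against 71.2% of other regions at that count. At 30 to 49 reads it was 12 of 36 (33.3%, 18.6 to 51.0) against 54.7%, and the member interval ends below the others' share. At 50 to 99 reads the shares were 36.1% and 39.4%, and at 100 or more 1 of 16 (6.25%, 0.158 to 30.2) and 238 of 1253. Other regions with the members' mix of count classes would have 51.0% empty, those with their mix of annotation 42.3%, and those with both 44.3%. The latter 2 lie inside the member interval of 29.1 to 46.9, and 51.0% lies above it. The other regions behind 51.0% include those without a gene, and the mixes of annotation carry the difference in classing described above. Among exonic regions alone the shares were 28 of 95 (29.5%, 20.6 to 39.7) and 36.3%, a difference within counting error.

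**Figure D4:**
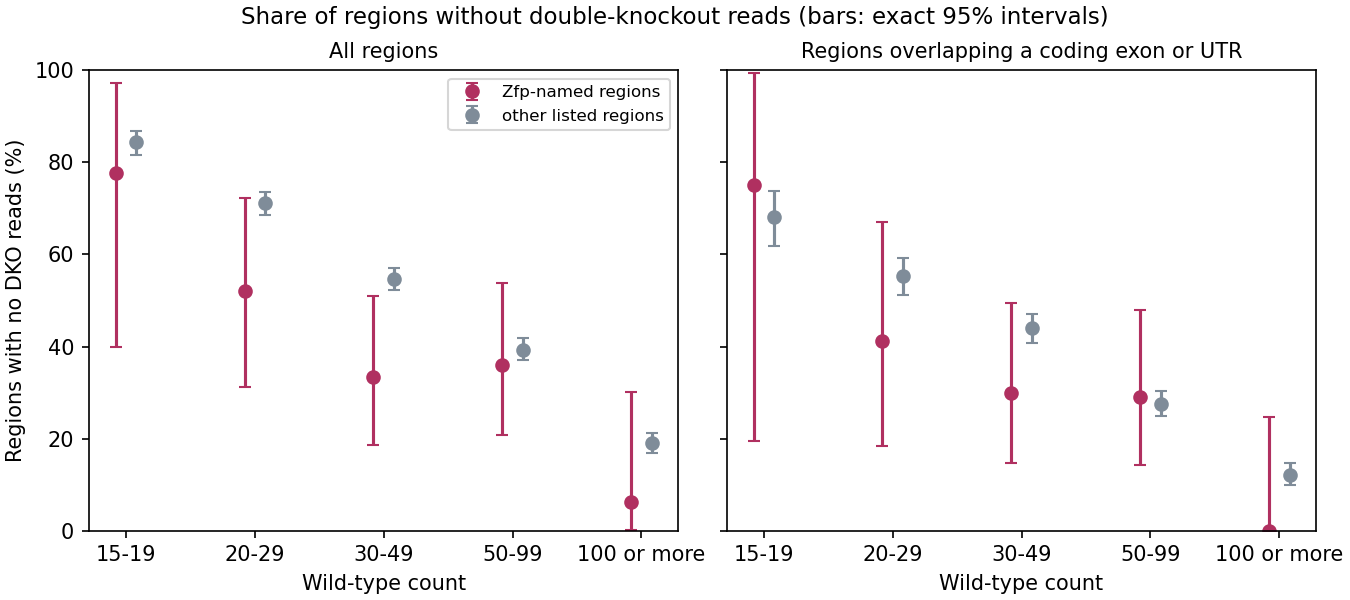
Share of regions without double-knockout reads (y axis, percent) by wild-type count (x axis), for Zfp-named and other listed regions, over all places (left) and over coding exons and UTRs (right), with exact 95% intervals. The Zfp-named share falls from 77.8% at 15 to 19 reads to 6.25% at 100 or more in the left panel.

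The highest wild-type count of any member did not lie in a Zfp gene. The region annotated to Zfp385a (374 reads against 23, 13.4-fold, 95% interval 8.80 to 21.4) lay upstream of that gene on chromosome 15 (103344591 to 103344841) and was annotated in the same table to the 3'UTR of Itga5, the integrin alpha-5 gene. Both regions of Zfp523 (57 against 0 and 41 against 1) lay outside that gene and within the RefSeq span of Scube3, and the region of Zfp607 (29 against 0) in the 3'UTR of its neighbour Zfp59. In all, 8 members fell outside the span of the gene they were annotated to, and Zfp385a, Zfp523 and Zfp607 had no other region. That leaves 114 regions in 74 genes. In these 42 had no double-knockout reads (36.8%), the median log2 value was -4.11 and the fold of the sums 16.2.

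Zfp646 and Zfp668 are neighbours on chromosome 7, and 4 regions were listed under both. The region at 127875982 to 127876320 covered an intron and the 5'UTR of Zfp668 and had 68 reads against 0, at least 18.7-fold lower at the floor of 3 counts, with an exact 95% lower limit of 14.8. The region at 127880768 to 127880945 lay in a coding exon of Zfp646 and had 86 against 12 (5.91-fold, 3.22 to 11.9). That limit of the former fold lies above the upper limit of the latter, so these 2 intervals do not overlap. The pair stood out among the region pairs of 26 genes with several regions. Single-region intervals make no allowance for such a choice, so they cannot place the gap beyond counting error. The regions between them had 27 against 1 and 30 against 0, and the last coding region of Zfp646 had 44 against 2 (18.1-fold). Assigned by gene span, Zfp668 keeps 1 region and Zfp646 keeps 4, so the 2 regions that stood out lie in different genes.

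Among RNA-binding members, Zfp36, which encodes tristetraprolin and promotes decay of inflammatory mRNAs, had 278 reads against 4 in coding sequence (chromosome 7, 28377581 to 28377917). This was 57.3-fold (22.1 to 212), with a wild-type density of 0.825 reads per base against a member median of 0.202. Its interval lies wholly above the members' fold of 16.2. Zfp106, an RNA-binding protein needed by motor neurons, had 169 against 5 in an intron and 56 against 1 in a coding exon, with 27.9-fold (11.7 to 87.0) and 46.2-fold (7.96 to 1856). Zfp207, a partner of Bub3 in mitosis, had 52 against 3 across an intron and 5'UTR (14.3-fold, 4.63 to 71.6). Zfp473, a component of histone pre-mRNA processing, had 46 against 3 in a coding exon (12.6-fold, 4.07 to 63.6). The intervals of these 4 genes overlap.

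Of the KRAB members that guard imprinted loci, Zfp57, which holds DNA methylation at imprinting control regions, had 61 reads against 8 in coding sequence (chromosome 17, 37010112 to 37010268). The fold was 6.29 (2.998 to 15.2), wholly below the members' 16.2. Zfp445, its partner at some of the same loci, had 36 against 5 (5.94-fold, 2.32 to 19.4), a similar fold whose interval reaches past 16.2. Zfp568, which silences a placental Igf2 transcript, had the highest summed count of any member gene, 461 against 34 over 5 regions (11.2-fold, 7.89 to 16.3).

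The 5 regions of Zfp568 lay on chromosome 7 between bases 29983987 and 30023151. The region over an intron and the 5'UTR near the start had 157 against 10 (12.9-fold). The next, over an intron, a coding exon and the 5'UTR, had 77 against 6 (10.6-fold), and the middle region over an intron and a coding exon 32 against 1 (26.4-fold, 4.41 to 1075). Further along, in coding exon, 138 against 9 (12.6-fold) stood beside 57 against 8 (5.88-fold, 2.79 to 14.3). All 5 had double-knockout reads, and their intervals overlap.

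Of 17 KRAB cofactor genes 5 were listed, against 15.7% of protein-coding genes without a Zfp name. Morc3, an ATPase that acts with this silencing machinery, had 179 against 6 in an intron (24.6-fold, 11.1 to 67.9), and Uhrf1, which brings Dnmt1 to replicating DNA, 53 against 5 (8.74-fold). Dnmt1, the maintenance DNA methyltransferase, had 37 against 0, Atf7ip, a partner of Setdb1, 45 against 1, and Cbx1, a heterochromatin protein, 28 against 1. The list's median log2 value was -4.51, against -4.93 over all listed regions, with 1 of 5 regions empty, against 50.5%. Trim28 and Setdb1 themselves were not listed.

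Among members tied to pluripotency and chromatin, Zfp281, a GC-box factor that binds Nanog, had 134 reads against 11 in coding sequence (chromosome 1, 136625664 to 136625868) and 19 against 1 in a region annotated as intronic. The folds, 10.0 (5.44 to 20.6) and 15.7 (2.49 to 651), have intervals that overlap. Zfp217, a transcriptional regulator reported to bind Mettl3 in stem cells, had 45 against 2 in a coding exon (18.6-fold, 4.85 to 158). Zfp219, a repressor of the same finger type, had 138 against 12, 57 against 2 and 57 against 0 in 3 coding-exon regions, or 14.8-fold (8.68 to 27.5) in sum. Zfp687 (43 against 4, 8.87-fold) and Zfp592 (25 against 0, at least 6.87-fold), which share a complex with Zmynd8, were both in the lower part of the depth range. Zfp335, a regulator of T cell maturation, had only the intronic region shown above (at least 7.70-fold). Zfp462, a guardian of heterochromatin at developmental genes, had 2 regions annotated as upstream, with 18 and 22 against 0. Both overlapped its RefSeq span and were annotated also to the transcript Gm8364.

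Several other regulators had no double-knockout reads. Zfp423, a factor of cerebellar and fat cell development, had 47, 36 and 20 against 0 in its coding exons on chromosome 8, at least 28.3-fold lower in sum, and was the only gene with 3 or more regions in which every one was empty. Zfp385b had 147 against 0 at 77568287 to 77568515 of chromosome 2, within an intron (at least 40.4-fold at the floor, exact lower limit 32.5), the highest wild-type count of any empty member. Zfp295, now named Zbtb21, had 99 and 27 against 0 in regions annotated as Genic, at least 34.6-fold in sum. Zfp148, a GC-rich binding factor, had 94 against 0 in an intron (at least 25.8-fold), and Zfp362 62 against 0 in its 3'UTR (at least 17.0-fold). Zfp91, a ubiquitin ligase as well as a finger protein, had 25 against 0 in the 3'UTR, where other genes are annotated too. The bound of an empty region scales with its wild-type reads, so their bounds differ with depth.

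Other members with roles in development kept reads in the knockout. Zfp703 had 126 against 14 in its 3'UTR on chromosome 8 (26979005 to 26979176), 7.42-fold (4.26 to 14.0). Zfp503, of the same small family of elbow-related repressors, had 107 against 5 (17.7-fold, 7.33 to 55.5). Their intervals overlap, and whether the folds differ was not tested. Zfp608 had 73 against 2 and 72 against 5 in coding exons (17.1-fold in sum, 8.08 to 43.3), and its paralog Zfp609, a cofactor of Nipbl in neural progenitors, 40 against 5 (6.60-fold, 2.60 to 21.4), also overlapping.

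The remaining deep members lay mostly in coding exons. Zfp651 on chromosome 9 had 202 against 25, 141 against 14 and 72 against 3, or 8.15-fold in sum (5.92 to 11.5), wholly below the members' 16.2. Zfp282 had 120 against 4 where the coding exon meets the 3'UTR (24.7-fold, 9.42 to 92.3) and 86 against 12 further into the 3'UTR (5.91-fold, 3.22 to 11.9), and the region over its coding exon and 5'UTR had 22 against 1. Zfp865 had 93 against 4, 51 against 4, 21 against 0 and 55 against 1 along 1 stretch of coding exon, or 20.2-fold in sum (10.4 to 44.7). Zfp316 had 102 against 3 and 69 against 0, or 47.0-fold (15.8 to 230.2). The interval of Zfp316 lies above that of Zfp651, with no allowance for the choice of this pair among all members.

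The 3 smallest folds of members with at least 3 double-knockout reads were in shallow regions. Zfp407 had 19 against 3 (5.22-fold, 1.54 to 27.6), Zfp422 20 against 3 in its 3'UTR (5.50-fold) and Zfp280b 21 against 3 (5.77-fold), each with an interval that reaches past 16.2. Zfp407, a regulator of fat cell genes, had 86 and 31 against 0 in adjacent regions, so its log2 values ran from -7.16 to -2.20, the widest range of any gene here. Its intervals still overlap, since 3 reads fix a fold poorly, but overlap alone does not place the range within counting error.

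Of all 122 members, 107 (87.7%) had an interval that held the members' fold of 16.2, 5 lay wholly above and 10 wholly below. Among the other listed regions 83.7% held that value, 9.04% lay above and 7.23% below. The 5 above were regions of Zfp36, Zfp148, Zfp295, Zfp385b and Zfp407, and of these Zfp36 alone had double-knockout reads. The 10 below were in Zfp57, Zfp282, Zfp513 (60 against 8), Zfp568, Zfp651 (the regions with 202 and 141 reads), Zfp703 and Zfp710 (74 against 9 in the 3'UTR), plus the coding region of Zfp646 that was also listed under Zfp668. All but Zfp57, Zfp513 and Zfp703 of these genes had 3 or more regions.

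As listed, 51 of the 77 genes had 1 region, 13 had 2 and 13 had 3 to 5. Zfp668 is in the last group only through regions outside its span. With own-gene regions only, 12 genes had 3 or more. Within the last group the range of log2 values had a median of 2.10, from 1.21 in Zfp423 to 4.96 in Zfp407. In 4 of the 13 genes, Zfp282, Zfp568, Zfp651 and Zfp828, every region kept double-knockout reads, and in 8 there were empty and filled regions side by side. Zfp828, now named Champ1 and needed for chromosome alignment, had 55 against 1, 47 against 5 and 35 against 3. In 24 of the 26 genes with several listed regions the intervals of all regions overlap. The exceptions were Zfp646 and Zfp668 through the region pair listed under both. By gene span 1 region of that pair lies in each gene, so neither gene holds both. These counts and ranges were not computed for other genes with several regions, so none is read as a trait of Zfp genes.

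**Figure D5:**
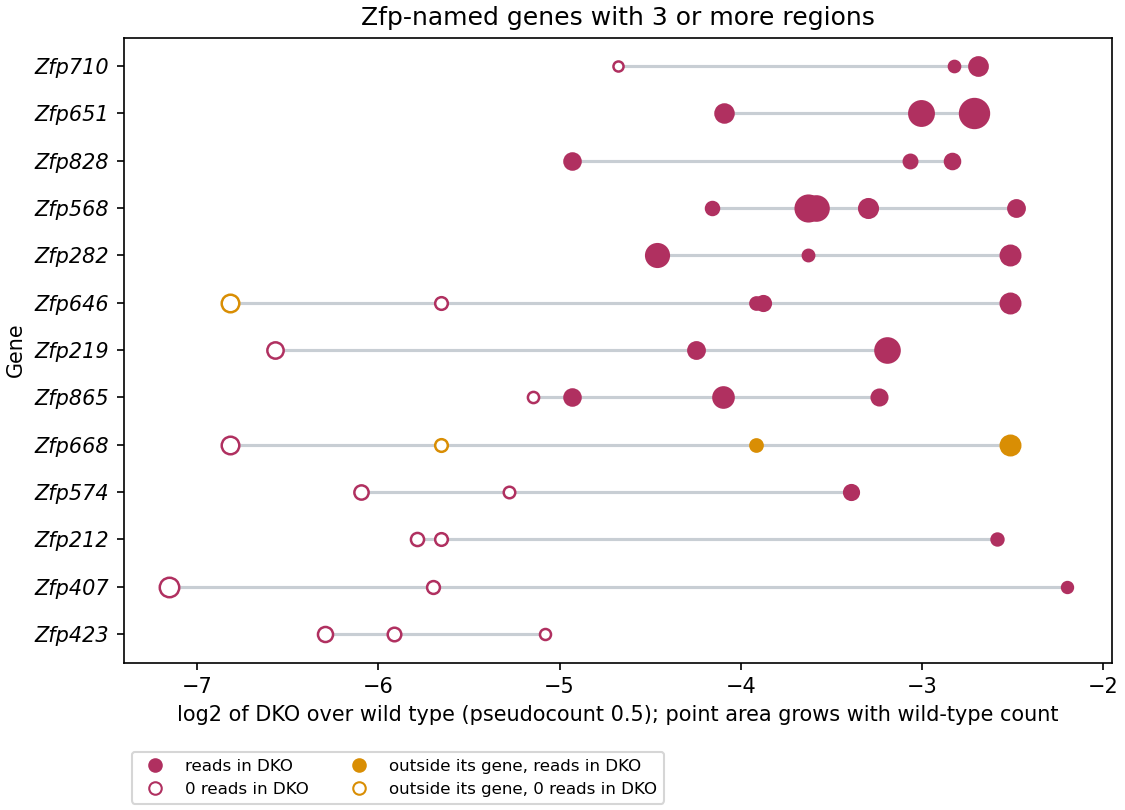
The log2 of double knockout over wild type (x axis, pseudocount 0.5) for every region of the 13 Zfp-named genes with 3 or more regions (y axis). Point area grows with the wild-type count, open points had 0 double-knockout reads, and orange points lie outside the gene's RefSeq span, as 3 regions under Zfp668 and 1 under Zfp646 do.

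Of the genes not described so far, none had over 109 wild-type reads in a region. The deepest of them were Zfp768 (109 against 10, 8.99-fold) and Zfp516 (108 against 5 in a coding exon, 17.8-fold), a factor of brown fat. Zfp672 had 99 against 1 in a coding exon, which gave the highest fold of a member with double-knockout reads, 81.7, with an interval of 14.3 to 3257. Zfp746, the repressor PARIS, had 93 against 6 (12.8-fold), and Zfp628 75 against 3 (20.6-fold). Zfp618 (60 against 0), Zfp319 (59 against 0) and Zfp518b (55 against 0) were the deepest empty ones in exons, with bounds of 16.5, 16.2 and 15.1. Zfp238, now named Zbtb18 and a repressor in developing neurons, had 31 against 1.

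The rest, with at most 69 wild-type reads in a region, are given by place. Intronic and empty were Zfp410, an activator of Chd4, with 48 reads, Zfp939 with 45, Zfp704 with 22, Zfp354b with 19 and Zfp236 with 17. In 3'UTRs, Zfp12 (19) and Zfp341 (23), an activator of Stat3, were empty, while Zfp444 had 41 against 2 and Zfp507 48 against 2. Among coding regions Zfp574 had 44 against 3, 41 against 0 and 23 against 0, Zfp142 37 against 2 and 28 against 1, and Zfp553 45 against 5 and 39 against 3. Zfp212 had 33 against 0 and 25 against 3 besides the region shown, and Zfp664 had 43 against 2 in coding sequence and 45 against 4 in its 5'UTR. Single coding regions were empty in Zfp617 (42) and Zfp697 (38). They held 1 to 6 double-knockout reads in Zfp275, Zfp593, Zfp623, Zfp639, Zfp644, Zfp747 and Zfp771, with 23 to 69 wild-type reads and folds from 7.97 in Zfp639 to 37.9 in Zfp623. Zfp498, now Zscan25, had 42 against 3 in a region annotated as Genic. Empty and filled regions thus occurred in every place class that holds members.

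By RefSeq symbols 397 protein-coding genes carry a Zfp name, of which 77 (19.4%, 15.6 to 23.6) had a listed region by gene identifier, against 15.7% of other protein-coding genes. The number equals that of the members by coincidence, since Zfp238, Zfp295, Zfp498 and Zfp828 have since been renamed outside the root while Zfp469, Zfp512b, Zfp607b and Zfp638 were listed under other symbols. By chromosome, described after the values were seen and with no test, the listed share ran from 2.70% on chromosome 13 to 4 of 5 genes on chromosome 3 (28.4 to 99.5%). Chromosome 7 held 38 members in 19 genes, and 20 of its 93 RefSeq Zfp genes (21.5%) were listed. Chromosome 13 had 1 of 37 (2.70%, 0.0684 to 14.2), Zfp458 with 25 intronic reads against 0, and chromosome 17 had 2 of 46 (4.35%, 0.531 to 14.8), against 13.3% and 16.0% of the other protein-coding genes there. The interval on chromosome 13 holds the other genes' share, and that on chromosome 17 ends below it. Zfp genes in clusters resemble each other closely, and how reads fitting several copies were treated is not given in the sources used here. Its part in these shares was not tested, and counts of members with close copies are uncertain for the same reason.

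Other zinc finger families in the table were smaller. The 20 regions of Zbtb genes had a median log2 value of -3.98 with 8 empty, the 16 of Zc3h genes -4.04 with 2 empty (12.5%, 1.55 to 38.3) and the 10 of Klf genes -3.47 with 3 empty. The 4 of Zscan and Zkscan genes had -5.72 with 3 empty. The intervals of the empty shares of Zbtb (40.0%, 19.1 to 63.9), Klf (3 of 10, 6.67 to 65.2) and Zc3h genes overlap that of the Zfp members. Of RefSeq genes with these names, 39.0% of Zbtb (16 of 41, with the members Zfp238 and Zfp295 among them), 41.2% of Klf (7 of 17) and 42.1% of Zc3h genes (8 of 19) were listed. For Zscan and Zkscan genes it was 18.5% (5 of 27, 6.30 to 38.1, with the member Zfp498 among them), close to the 19.4% of Zfp genes. The lower limits for Zbtb (24.2%) and the Zfp upper limit of 23.6% do not meet, while the Klf (18.4%) and Zc3h (20.3%) lower limits lie below it.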

How the data were processed

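The 122 regions were taken from 1 deposited table of regions with gene annotation. Its counts are whole numbers per region, deposited by the authors with no stated normalization. The authors' deposited ratio divides wild-type by double-knockout counts and multiplies by 0.825 (blank where the divisor is 0), and their deposited signal is wild-type reads per base. Bowtie2, DESeq and mm9 are named without role in the submitters' processing notes. Coordinates are printed as deposited, and all 122 members lay within 5000 bases of their gene in RefSeq GRCm38.p6, matched by gene identifier (77 of 77). Sequences are from RefSeq.

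Folds, log2 values (pseudocount 0.5), exact Clopper-Pearson intervals (95%) and a floor of 3 counts for a count of 0 were computed with scipy 1.17.1 and pandas 2.3.3, and tested on simulated data. Strand came from the RefSeq promoter table, or from the deposited distances. Genes were named by depth, by the deepest empty regions, by the smallest folds with at least 3 double-knockout reads, by having 4 or more regions, and from a list of 33 genes (17 listed); genes named outside this rule were chosen after their values were seen. Members and lists were chosen with earlier results of these data known. The input libraries were not analysed here. Alternatives varied scaling, pseudocount, floor, depth, annotation and membership.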

Additional observations from a re-analysis of the deposited data

How the results depend on the processing

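The median log2 value (-4.13) was -3.26 with a pseudocount of 2 and -0.37 with a median-ratio factor, which shifts every value by 3.77 and centres the regions with reads in both libraries by construction. That factor took the number at least 10-fold lower (67) to 0 and the fold of the sums (16.2) to 1.19, and put 14 of the 31 named genes above 0. Without the authors' constant the fold of the sums was 19.65, and over exonic regions 14.5. The share of empty regions (37.7%) was 24.6% among the 69 members at or above the median mean count, where fewer shallow regions enter. With the deepest region of each gene 44 were at least 10-fold lower, as fewer regions were counted. The median range within genes (2.10) was 1.44 with a pseudocount of 2. With each position once, without chromosome 7, or with own-gene regions only, all chosen after seeing the data, the median was -4.11, -4.51 and -4.11. Of 155 alternatives for named genes 33 left the counting interval, 31 of them with the median-ratio factor and the others on summing the regions of Zfp646 and of Zfp668. No paired analysis was possible because each genotype had 1 library. Depth limits most members: at 45 wild-type reads, the median, an empty region gives a fold of 12.4 at the floor, with an exact lower limit of 9.655.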
